A study of Rattus norvegicus with 2 samples.

Results

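Among the cells of rat cartilage profiled one by one by RNA sequencing, 1867 of 14078 were fibroblasts that carried RNA of Mfap2, Egfl6 or Prss35, 3 genes for secreted matrix proteins. They are called Egfl6 and Mfap2 fibroblasts here. They were picked on their own counts. A cell first had to pass as a gated fibroblast, that is, the summed level of Dcn, Lum, Col1a1 and Col3a1 had to reach 20000 CPM (a gene's UMIs as a share of all UMIs, on the usual counts-per-1e6 scale; a UMI, or unique molecular identifier, marks 1 captured RNA molecule). Prg4 had to lie under 5000 CPM, Col2a1 under 1000 CPM, Lyz2 under 10000 CPM and the sum of Top2a, Cdk1, Cenpf and Ube2c under 5 UMIs, which keeps out cells led by lining, chondrocyte, myeloid or cell division genes. A gated fibroblast became a member when Mfap2, Egfl6 and Prss35 together had at least 3 UMIs and more than Sectm1a, Sectm1b and Cbln1 together, while Aqp3, Fam180a and Fam25a together had fewer than 5.

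The cartilage came from Lewis rats, an inbred strain used in arthritis research. The collagen-induced arthritis (CIA) library was made from rats given type II collagen with Complete Freund's Adjuvant and collected on day 14, and it held 869 members among 8622 cells. The control library was made from rats with no treatment, which the series also names sham, and it held 998 members among 5456 cells. There was 1 library per group, the number of animals behind each is not given in the sources used here, and no difference below has a replicate check or a test: each compares these libraries, not the conditions. The libraries shared 52 cell barcodes, among them that of 1 member present in both.

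Fibroblasts of joint tissue lay down the collagen fibres and elastic microfibrils of the capsule, the synovial sublining and the perichondrium. Microfibrils are built from fibrillins, to which microfibril-associated glycoproteins such as the Mfap2 product bind, and in many tissues they carry elastin. Microfibrils also hold latent growth factors of the TGF-beta and BMP families in the matrix. Egfl6 codes for a secreted protein with EGF-like repeats that binds integrins. Prss35 codes for a secreted protein related to serine proteases, in which the catalytic serine is replaced.

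The members made up 10.1% of the CIA library (exact binomial 95% interval 9.45 to 10.7) and 18.3% of the control library (17.3 to 19.3). Of the gated fibroblasts alone they made up 43.0% in the CIA library (869 of 2019, interval 40.9 to 45.2) and 57.0% in the control library (998 of 1750, 54.7 to 59.4), so their share was lower in the CIA library on both bases. Gated fibroblasts with more UMIs of Sectm1a, Sectm1b and Cbln1 were 30.8% of gated fibroblasts in the CIA library and 19.5% in the control library. These intervals, like all others below, cover counting error only. The members of the CIA library were shallower, with a median of 9547 UMIs and 2575 genes per cell, against 11673.5 UMIs and 2813 genes in the control library. With every cell thinned to 5000 UMIs, which left out 445 shallower CIA cells and 0 control cells, the share was 8.72% in the CIA library and 15.3% in the control library. The other cells of each library set these shares too. Lyz2-high cells, with at least 10000 CPM of Lyz2, a lysozyme gene of macrophages and their kin, were 38.0% of the CIA library and 22.6% of the control library. They also had to hold under 20000 CPM of Dcn, Lum, Col1a1 and Col3a1 together and fewer than 10 UMIs of endothelial markers.

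**Figure D1:**
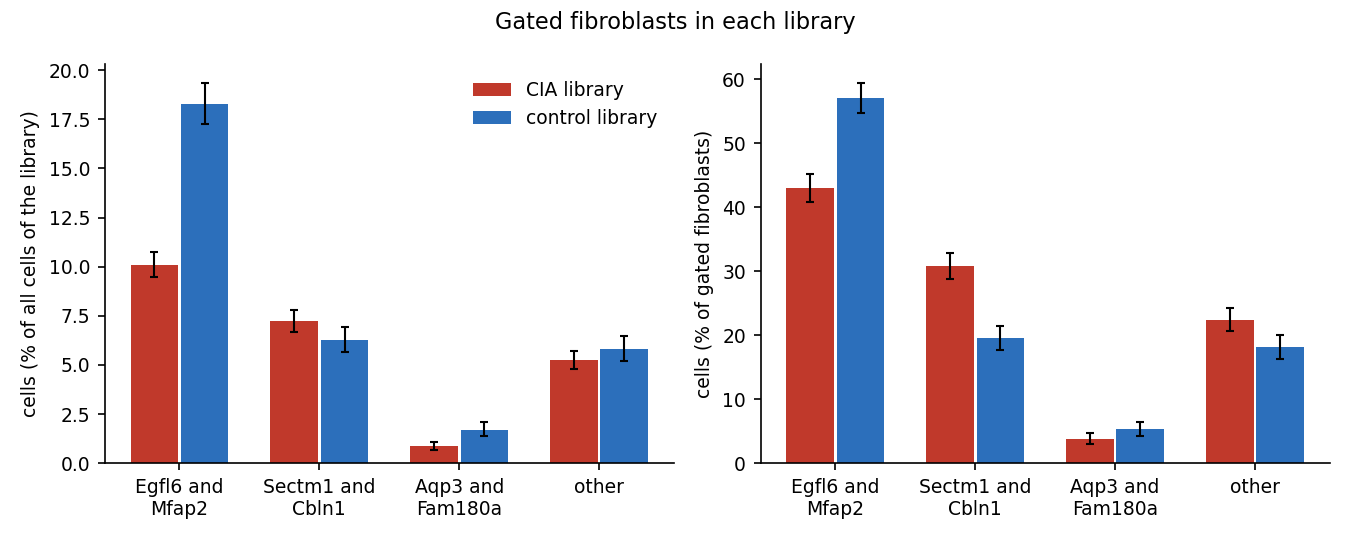
Share of each kind of gated fibroblast, as a percentage of all cells (left) and of gated fibroblasts (right), in the CIA library (red) and the control library (blue), with exact binomial 95% intervals as bars. The Egfl6 and Mfap2 fibroblasts stand at 10.1% in CIA and 18.3% in control on the left, and at 43.0% in CIA and 57.0% in control on the right.

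The rule's minimum ran through a thin tail of cells rather than a gap. Just outside it, 73 CIA cells and 69 control cells carried 2 UMIs of the 3 genes, and just inside it, 70 CIA cells and 48 control cells carried 3. The median member carried 11 UMIs of the 3 genes in the CIA library and 12 in the control library, and the highest carried 72 and 81. All 3 genes were detected together in 16.7% of CIA members and 15.4% of control members. Another 58.6% of CIA members and 61.9% of control members had exactly 2 of them. Members seen with Mfap2 alone were 15.7% in the CIA library and 15.6% in the control library.

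Mfap2 was the most widely detected of the 3. It had a UMI in 89.5% of CIA members and 91.6% of control members, at a summed level of 759 CPM (95% interval 741 to 777) in the CIA library and 729.6 CPM (715 to 745) in the control library. Single members ranged up to 4285 CPM in the CIA library and 3299.8 CPM in the control library, with medians of 671 and 642 CPM. Egfl6 had a UMI in 56.4% of CIA members and 67.1% of control members, at 303 CPM in CIA and 381 CPM in control. Prss35 had a UMI in 46.0% of CIA members and 34.1% of control members, at 238 CPM in CIA and 132.9 CPM in control. Mfap2 was thus close to level between the libraries, Egfl6 lay below it in the CIA library (CIA over control ratio 0.80, interval 0.76 to 0.83), and Prss35 above (1.79, 1.68 to 1.91), with none of the 3 at a 2-fold difference. Cells picked for at least 10 UMIs of endothelial markers should lack these genes. At 5000 UMIs a cell, Mfap2 had a UMI in 3.13% of these cells in CIA and 5.16% in control. Shares and levels in these cells are called the background here, and whether free RNA is their source was not tested. The rule fixes a high share in members, 84.4% in each library at 5000 UMIs a cell.

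Because the members were chosen on the counts of these same cells, their levels beside other fibroblasts are a description with no test. The comparison took the 6531 genes with a UMI in at least 10% of members in each library. Of these, 37 (0.567%) were at least 2-fold higher in members than in all other gated fibroblasts of the same library, in both libraries. Another 18 (0.276%) were at least 2-fold lower in both. Genes rare in members were left out whatever their level elsewhere, so these counts are not weighed against each other. The rule genes were among the highest: Prss35 stood 16.6-fold higher in the CIA library and 10.99-fold in the control library, Mfap2 9.46-fold and 5.76-fold, and Egfl6 6.73-fold and 5.15-fold. Among genes that the rule did not name, Fbn2, the fibrillin of developing microfibrils, was 8.16-fold higher in the CIA library and 5.90-fold in the control library, though only at 17.0 CPM in CIA and 13.1 CPM in control. Cpxm1, a secreted relative of the metallocarboxypeptidases, stood at 105 CPM in CIA members and 89.3 CPM in control members, which is 6.21-fold and 3.77-fold higher than in the other gated fibroblasts.

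Several further genes had the same pattern at moderate folds. Podnl1, a small leucine-rich repeat protein related to podocan, was 3.09-fold higher in CIA and 2.73-fold in control, and Lrrc15, a leucine-rich repeat membrane protein, 3.49-fold and 3.15-fold. The matricellular gene Smoc2 was 3.01-fold higher in CIA and 3.05-fold in control. Cdkn1c, which codes for the cell cycle inhibitor p57, was 3.00-fold higher in CIA and 3.13-fold in control. The LIM-domain gene Csrp2 stood 4.70-fold higher in CIA and 3.15-fold in control, at 288 CPM in CIA members and 163 CPM in control members, beside 241 and 247 CPM in endothelial-marker cells. Elastin itself, Eln, stood at 212 CPM in CIA members and 206 CPM in control members, 2.76-fold and 2.14-fold higher. Col12a1, a collagen that decorates fibril surfaces, was 2.08-fold higher in CIA and 2.05-fold in control. These genes did not stand for the whole microfibril list. It had 18 genes with a UMI in at least 10% of members in each library. Of these, Mfap2, Fbn2 and Eln were 2-fold higher in both libraries and 0 were lower. The list's median ratio was 0.97 in CIA and 1.00 in control, beside 1.04 and 1.02 over all 6531 genes. Fbn1, the main fibrillin, was 0.81 times the level of the other gated fibroblasts in both libraries.

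Postn was the marker that separated the members least. Periostin, its product, is a matricellular protein of periosteum, ligament and scar. Its level was 5657 CPM in CIA members and 5095 CPM in control members, only 1.49-fold and 1.58-fold above the other gated fibroblasts. The Sectm1 and Cbln1 fibroblasts alone held 4410 CPM in the CIA library and 3986 CPM in the control library. Serpine2, a protease inhibitor that was 3.05-fold higher in CIA members and 2.05-fold in control members, was not theirs alone either: Aqp3 and Fam180a fibroblasts of the control library, 93 cells, held 531 CPM, against 366 CPM in control members. In the same 93 cells Mfap2 reached 446 CPM, so the border to that neighbour was less sharp in the control library than in the CIA library, where 76 such cells held 124 CPM of Mfap2.

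**Figure D2:**
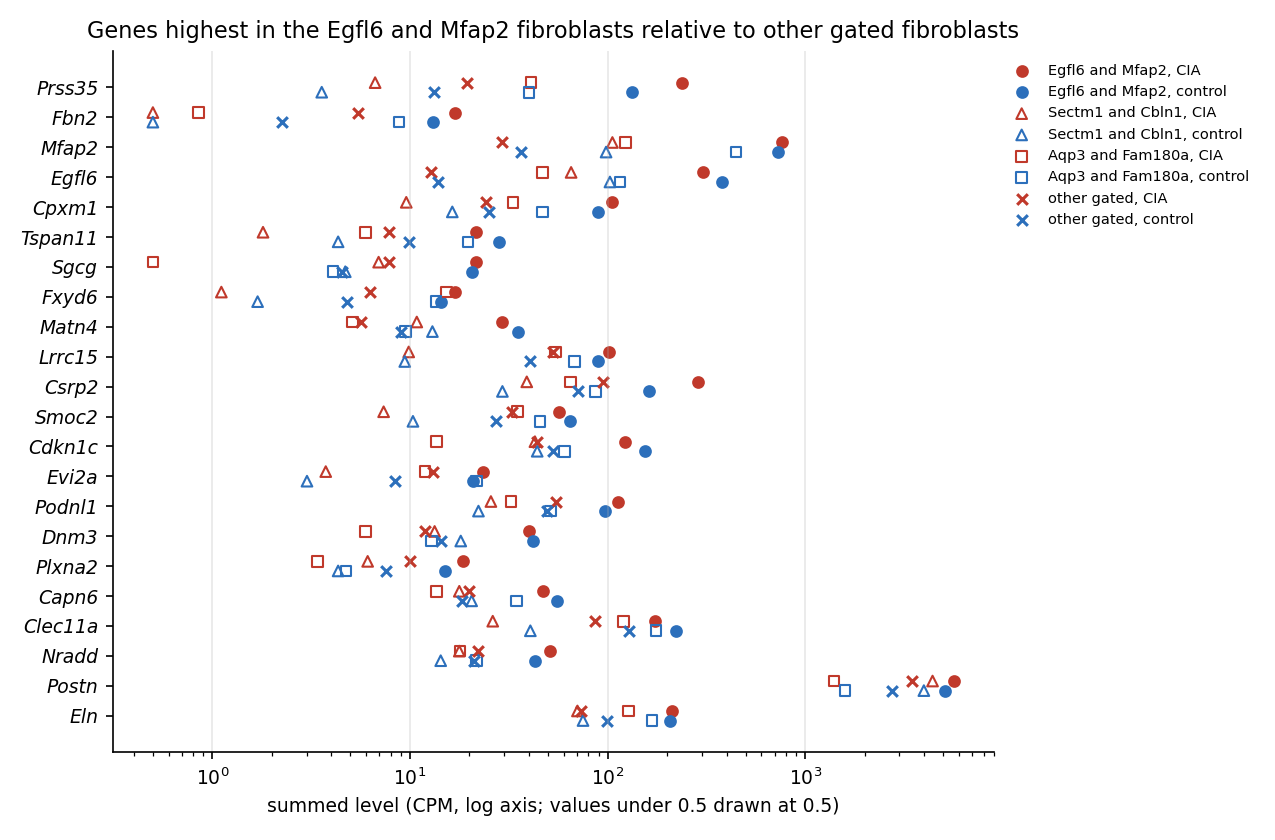
Summed level in CPM (log axis) of the 20 genes that stood highest in the Egfl6 and Mfap2 fibroblasts relative to all other gated fibroblasts, with Postn and Eln, in each kind of gated fibroblast of the CIA library (red) and the control library (blue). Filled circles (members) lie to the right of the other marks for nearly every gene, by most for Prss35, and by least for Postn at 5657 CPM in CIA members and 5095 CPM in control members.

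The genes at least 2-fold lower in members included several besides those of the rule. Vcam1, an adhesion molecule of the synovial lining and of activated stroma, was at 103 CPM in CIA members and 124 CPM in control members, against 272 and 273 CPM in the other gated fibroblasts. Pla2g2a, a secreted phospholipase, was at 79.8 CPM in CIA members and 177 CPM in control members, against 750.1 and 679.6 CPM elsewhere. Clec3b, Pcsk5, Sulf1, Htra4 and Tmem176b were also lower in both libraries. For Pcsk5 the contrast lay with the Sectm1 and Cbln1 fibroblasts, where it stood at 286 CPM in CIA and 274 CPM in control, against 77.8 and 62.8 CPM in the remaining gated fibroblasts and 71.0 and 59.5 CPM in members.

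The label of matrix fibroblasts was checked against marker lists. As the rule requires, all members carried fibroblast marker RNA, at a summed 92585 CPM in the CIA library and 95235 CPM in the control library, with the lowest member at 22631 and 20499 CPM. Col1a1 stood at 31049 CPM in CIA members and 34717 CPM in control members and Col3a1 at 27014 and 27836 CPM, while Col1a2, the partner chain of type I collagen, was counted at no more than a few CPM in either library, so low values for some genes were not read as absence of the transcript. The most abundant matrix-related RNAs after these were Sparc, a collagen-binding glycoprotein, at 27140 CPM in CIA and 28065 CPM in control, and lumican (Lum), a proteoglycan of collagen fibrils, at 26801 and 24089 CPM. Endothelial markers summed to 82.6 CPM in CIA members and 130.3 CPM in control members, against 6525 and 5649 CPM in endothelial-marker cells, over 10 of the 11 markers listed; Pecam1 was not analysed here. The periosteum, perichondrium and osteogenic markers summed to 10160 CPM in CIA members and 8599 CPM in control members, above the 7176 and 6525 CPM of the 6 markers of the matrix fibroblasts themselves. That list holds Postn, which is also a matrix fibroblast marker, and Mmp13, at 3200 CPM in CIA members and 1898 CPM in control members. The periosteal sum was 7278 CPM in CIA and 6905 CPM in control Sectm1 and Cbln1 fibroblasts. In Aqp3 and Fam180a fibroblasts it was 4297 and 4628 CPM. Synovial lining markers summed to 9247 CPM in CIA members and 6958 CPM in control members, of which Fn1 made up 7933 and 6002 CPM. The sum of the lining markers was 12823 CPM in CIA and 11435 CPM in control gated fibroblasts outside the kinds named here. Tendon and ligament markers summed to 2253 CPM in CIA members and 2228 CPM in control members. Scx, a tendon transcription factor, was at 87.4 and 75.7 CPM and in 40.6% and 38.9% of members. The tendon sum was higher, at 3609 CPM in CIA and 3083 CPM in control, in Aqp3 and Fam180a fibroblasts. It was lower, at 1226 and 1257 CPM, in Sectm1 and Cbln1 fibroblasts. The series title names articular chondrocytes, whose Col2a1-rich cells the rule keeps out, and the 14 chondrocyte markers summed to 675 CPM in CIA members and 850.3 CPM in control members.

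The members were not uniform. Clustering the 1867 cells of both libraries together without batch correction gave 7 subclusters, described by their leading genes. In 268 cells Prss35 (676 CPM), Serpine2, Csrp2, Cd200 and Draxin led. In 453 cells the leaders were the neutrophil-attracting chemokine genes Cxcl3 and Cxcl6, with Cxcl13, the pleiotrophin gene Ptn and the collagenase gene Mmp13 (5457 CPM). In 410 cells the leaders were Nov, Col14a1, Itm2a, Mfap5 and Ctgf, genes of matricellular and fibril-associated proteins. In 304 cells they were Hapln1, Scrg1, Ucma, Acan and Fmod, of which Hapln1, Acan and Ucma code for cartilage matrix proteins. The acute-phase gene Lcn2 (3981 CPM), the chemokine gene Ccl20, the cytokine gene Il6 and the complement gene C3 led 262 cells. Ndufa4l2, Timp3 and Tppp3 were among the leaders of 137 cells. The last 33 cells were led by Myoc and Gsn, with Cilp and Plvap, an endothelial gene; they had a median of 6344 UMIs.

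The rule genes themselves were spread unevenly over these subclusters. Mfap2 lay between 614 and 909 CPM in every subcluster except the one with Ndufa4l2 and Timp3 among its leaders, where it was 264 CPM. Egfl6 was highest, at 611 CPM, in the subcluster led by Nov and Col14a1, and at 7.70 CPM was close to the background in the one led by Ndufa4l2 and Timp3, since endothelial-marker cells held 3.52 CPM in CIA and 5.80 CPM in control. Prss35 had its second highest level in that same subcluster, at 272 CPM. Cells of the Ndufa4l2 and Timp3 subcluster therefore entered the rule on Prss35 and on a modest level of Mfap2 rather than on Egfl6. Postn was highest in the subcluster led by Cxcl3 and Cxcl6, at 9284 CPM, and at 1764 CPM lower by far in the one led by Hapln1 and Scrg1. Eln ranged from 32.2 CPM beside Ndufa4l2 and Timp3 to 328 CPM beside Prss35 and Serpine2.

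**Figure D3:**
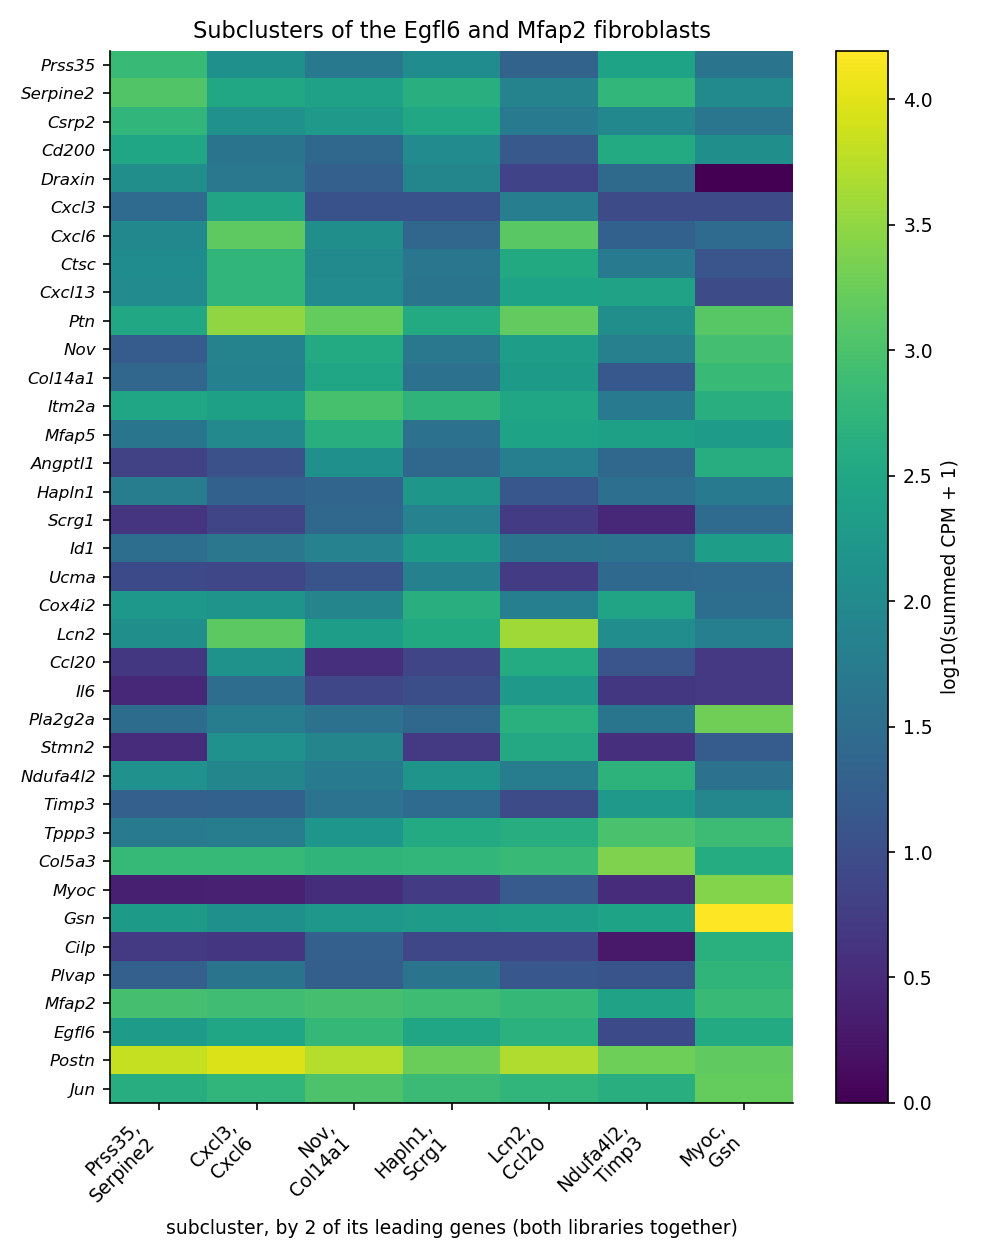
Summed level, as log10(CPM + 1), of leading genes, marker genes and Jun (rows) in the 7 subclusters of the Egfl6 and Mfap2 fibroblasts (columns, named by 2 of their leading genes, both libraries together). Egfl6 is near the background in the Ndufa4l2 and Timp3 column at 7.70 CPM, Postn is brightest in the Cxcl3 and Cxcl6 column at 9284 CPM, and the Myoc and Gsn column holds 33 cells.

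For 3 subclusters no leading gene differed past the size rule between the libraries, and only their shares are given, as a description. Other genes that differed between the libraries could still place cells, since the clustering was not corrected for library. Cells of a subcluster are also partly matched on its leading genes. The screen therefore cannot show that the shares are free of differences in level. Over all members Prss35 and Csrp2 were both higher in the CIA library. Csrp2, a leader of the first, was 1.85-fold higher in CIA within it, short of the rule. The one led by Prss35 and Serpine2 held 20.8% of CIA members (interval 18.2 to 23.7) and 8.72% of control members (7.04 to 10.6). The one led by Cxcl3 and Cxcl6 held 29.7% of CIA members (26.7 to 32.8) and 19.5% of control members (17.1 to 22.1). The one led by Ndufa4l2 and Timp3 held 9.55% of CIA members and 5.41% of control members. All 3 had the larger share in the CIA library. Shares of a library add up to its whole, so the remaining subclusters together had the smaller share there. Prss35 within its own subcluster was level, at 671 CPM in CIA and 683 CPM in control (ratio 0.98, 0.90 to 1.08), a value that the clustering on this gene partly fixes. Leading genes of the other subclusters differed between the libraries, and their sizes are not compared.

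Set against the control library, the members of the CIA library had few genes with large differences. A gene counted as measured with at least 100 UMIs over both sums, and as past the size rule when it differed by 2-fold or more and the near end of its 95% interval was still over 1.5-fold. Of 8786 measured genes, 17 (0.193%) were higher and 79 (0.899%) lower in CIA members, 1.09% in either direction, and the median log2 ratio was 0.08. Whatever the size, 5755 of these genes had a log2 ratio above 0 and 3031 below 0. Matrix genes were nearly level. In the microfibril and elastic fibre list 0 of 19 measured genes passed the rule (median log2 ratio 0.03, range -0.25 to 0.37). Lox, the cross-linking enzyme of collagen and elastin, stood at 740.2 CPM in CIA members and 696 CPM in control members. Likewise 0 of 12 fibrillar and associated collagen genes (median 0.01), 0 of 21 collagen processing genes (0.10), 0 of 14 basement membrane genes (0.01) and 0 of 11 protease inhibitor genes (-0.06) passed.

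The matrix protease list had 0 of 25 measured genes past the rule and a median log2 ratio of 0.22. Mmp13 was its largest contributor among the collagenases, at 3200 CPM in CIA members and 1898 CPM in control members (ratio 1.69, 1.66 to 1.72), while Mmp3, stromelysin, was at 6834 and 6151 CPM and Mmp2, a gelatinase, at 2773 and 2909 CPM. Between single members Mmp13 varied far more than between libraries: the interquartile range of CIA members was 130 to 4094 CPM and that of control members 77.1 to 2052 CPM. Within the subcluster led by Cxcl3 and Cxcl6 the ratio of Mmp13 was 1.33 (1.29 to 1.36), and within the one led by Nov and Col14a1 it was 0.48 (0.42 to 0.54). Fn1, fibronectin, was at 7933 CPM in CIA members and 6002 CPM in control members (ratio 1.32, 1.31 to 1.34). Among the small leucine-rich proteoglycans 1 of 8 passed: Kera, the keratocan gene, was at 70.8 CPM in CIA and 27.6 CPM in control, 2.57-fold higher (2.25 to 2.93), but it had a UMI in only 8.17% of CIA members and 6.71% of control members.

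**Figure D4:**
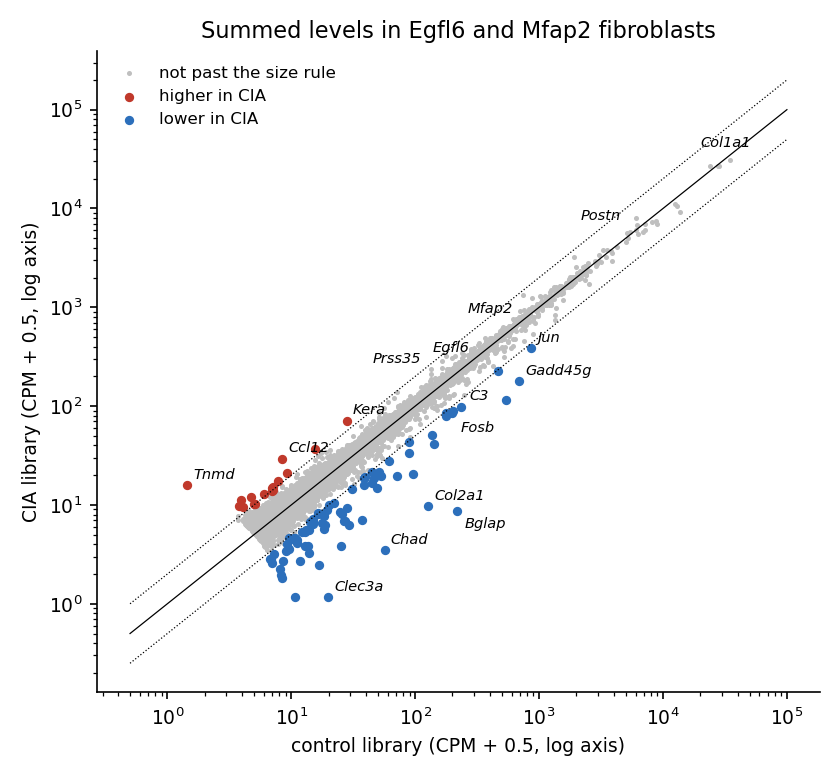
Summed level of each measured gene in the Egfl6 and Mfap2 fibroblasts of the control library (x axis) and the CIA library (y axis), as CPM plus 0.5 on log axes, with red points higher and blue points lower in CIA past the size rule; the solid line marks equality and the dotted lines 2-fold. Most genes lie between the dotted lines, with 17 red points and 79 blue points, and Jun, Gadd45g, Col2a1 and Chad lie below.

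Immediate-early genes, whose transcripts appear within minutes of a stimulus, were, of the 24 lists of pathways and functions, the one with the lowest median. Of 23 measured, 0 were higher and 5 lower past the rule, 22 had a log2 ratio below 0, and the median was -0.64. Over all 8786 measured genes 3031 had a log2 ratio below 0. Jun, a subunit of the transcription factor AP-1, was at 389 CPM in CIA members and 855 CPM in control members, 2.20-fold lower (2.12 to 2.28). It had a UMI in 85.2% of CIA members and 96.9% of control members. Fosb, another AP-1 subunit, was 2.36-fold lower (2.18 to 2.56), the stress-induced factor Atf3 2.29-fold lower (2.12 to 2.49), Myc 2.22-fold lower (1.92 to 2.57) and Ier5 2.67-fold lower (2.35 to 3.04). Fos itself was at 386 CPM in CIA and 588 CPM in control (1.52-fold lower, 1.46 to 1.59), which is short of the rule.

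The lower summed level of the list showed at the median and at both quartiles of the single members. The summed level of the list in single members had a median of 2028 CPM in the CIA library, with an interquartile range of 1330 to 3197 CPM, against a median of 3395 CPM in the control library, with an interquartile range of 2321 to 5605 CPM. These ranges overlapped, and the highest single cell was in the CIA library, at 68701 CPM. Within 6 subclusters large enough to compare, the list's median log2 ratio was below 0, at -1.27 in the one led by Nov and Col14a1, -0.74 beside Hapln1 and Scrg1, -0.56 beside Cxcl3 and Cxcl6, -0.34 beside Lcn2 and Ccl20, -0.33 beside Prss35 and Serpine2 and -0.15 beside Ndufa4l2 and Timp3, where the medians over all genes measured lay between 0.03 and 0.07. Jun was lower in each of these 6, from 2.80-fold in the first to 1.42-fold in the last. Atf3 was not: its ratio was 1.00 (0.75 to 1.33) beside Lcn2 and Ccl20. It was 0.83 (0.66 to 1.06) beside Prss35 and Serpine2 and 0.86 (0.69 to 1.07) beside Ndufa4l2 and Timp3. In the subclusters led by Cxcl3, by Nov and by Hapln1 it was 0.31, 0.16 and 0.47. The mix of subclusters also enters the sums over all members, and its part was not tested.

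Immediate-early levels were lower in other cells of the CIA library as well. The summed list stood at 3737 CPM in CIA endothelial-marker cells and 10639 CPM in control ones, and at 7447 CPM in CIA Lyz2-high cells and 17409 CPM in control ones. Beside these, the sums over members were 2853 CPM in CIA and 4684 CPM in control. The Jun ratio was 0.45 in members, 0.25 in endothelial-marker cells and 0.42 in Lyz2-high cells. The part that a difference between whole libraries had in the members' values was not tested.

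Gadd45g, a stress-inducible growth arrest gene, was lower by more than any immediate-early gene measured. It was at 179 CPM in CIA members and 690.4 CPM in control members, 3.86-fold lower (3.66 to 4.08). It had a UMI in 58.1% of CIA members and 87.6% of control members, and the median member stood at 84.5 CPM in CIA and 346 CPM in control. The gene was lower in all 6 of the larger subclusters, from 1.95-fold beside Lcn2 and Ccl20 to 5.54-fold beside Hapln1 and Scrg1. Its ratio was 0.19 in endothelial-marker cells and 0.82 in Lyz2-high cells, beside 0.26 in members. Its relative Gadd45b was 2.73-fold lower (2.46 to 3.03), at 50.2 CPM in CIA and 137 CPM in control. The polo-like kinase gene Plk2 (3.09-fold lower), the arsenite-inducible gene Zfand2a (3.04-fold), the stress cytokine gene Gdf15 (2.80-fold) and Cd83 (3.18-fold) were lower as well, each at under 10 CPM in CIA members.

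**Figure D5:**
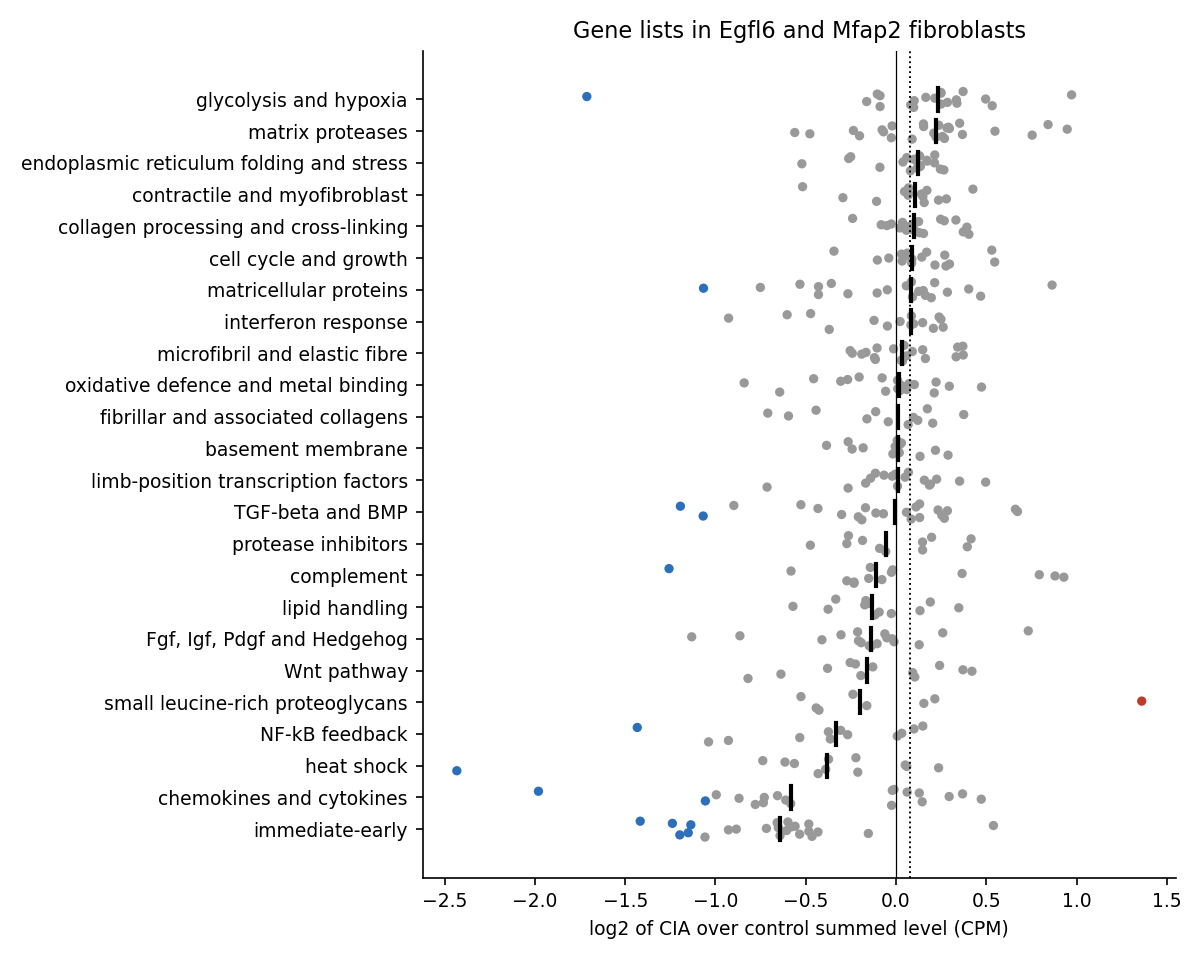
Log2 of CIA over control summed level for each measured gene (points) of 24 gene lists in the Egfl6 and Mfap2 fibroblasts, with list medians as black bars; red points are higher and blue points lower in CIA past the size rule, the solid line marks 0 and the dotted line the median of all measured genes at 0.08. The immediate-early list has the lowest median at -0.64 and 5 blue points, and the matrix lists lie near 0 with no coloured point for microfibrils or collagens.

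Summed over all members, no inflammatory mediator of the lists passed the rule as higher in CIA. Among chemokines and cytokines 0 of 19 measured were higher and 2 lower, with a median log2 ratio of -0.58. Counts within subclusters are a description, since some of these genes also lead subclusters and could place cells. Beside Prss35 and Serpine2, 3 of 8 measured were higher (Cxcl1, Cxcl6 and Cxcl13) and 0 lower, with a median of 0.58. Over all 3497 genes measured there, 13 were higher and 13 lower. Beside Ndufa4l2 and Timp3, 1 of 4 was higher (Cxcl13) and 3 lower, against 9 and 13 of all 2700. Beside Lcn2 and Ccl20, 1 of 13 was higher and 4 lower, against 21 and 32 of all 4035. In those led by Cxcl3, by Nov and by Hapln1, 0 were higher and 2, 5 and 2 lower. Over all 4685, 4262 and 3978 genes there, 8, 13 and 8 were higher and 31, 43 and 35 lower. Il1b, the gene of interleukin-1 beta, was at 18.2 CPM in CIA and 37.8 CPM in control (2.08-fold lower, 1.74 to 2.50). Il1b was lower past the rule in Lyz2-high cells and in Sectm1 and Cbln1 fibroblasts of the CIA library too. The list's median was -0.99 in endothelial-marker cells and -0.57 in Lyz2-high cells. It was -0.21 in Sectm1 and Cbln1 fibroblasts and -0.42 in Aqp3 and Fam180a fibroblasts. Cxcl9 had 86.7% of its UMIs in CIA members and 88.6% of those in control members in a single cell, and is not read further. Cxcl14 was at 458 CPM in CIA and 759.7 CPM in control (1.66-fold lower, 1.60 to 1.72), and the chemokine gene Cxcl6 at 619 and 559.7 CPM. In the complement list 1 of 14 passed: C3, the central complement component, was at 98.3 CPM in CIA members and 235 CPM in control members, 2.39-fold lower (2.22 to 2.58). C3 was concentrated in the subcluster led by Lcn2 and Ccl20, and within it stood at 249 CPM in CIA and 654 CPM in control. C1s, a protease of the classical pathway, was at 1109 CPM in CIA and 1231 CPM in control.

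Of the NF-kB feedback list 1 of 12 passed, and the median log2 ratio was -0.34. It was the deubiquitinase gene Tnfaip3, at 2.33 CPM in CIA and 6.29 CPM in control (2.70-fold lower, 1.65 to 4.60). Tnfaip3 was lower past the rule in endothelial-marker and Lyz2-high cells too, where the list's medians were -0.34 and -1.23. The part that a difference between whole libraries had in these values was not tested. The inhibitor gene Nfkbia, at 130.3 CPM in CIA and 248 CPM in control, was 1.90-fold lower (1.78 to 2.04) and short of the rule. The interferon response list had 0 of 15 past the rule and a median of 0.08, equal to that of all genes. In the heat shock list 9 of 12 had a log2 ratio below 0, beside 3031 of all 8786 measured genes, and the median was -0.38. The list's median was -0.69 in endothelial-marker cells and -1.51 in Lyz2-high cells. The gene past the rule was the small heat shock gene Cryab, at 1.44 CPM in CIA and 7.78 CPM in control, and the abundant Hsp90ab1 was level, at 1235 CPM in CIA and 1192 CPM in control. The endoplasmic reticulum list, which holds chaperones that fold secreted proteins, had 0 of 19 past the rule (median 0.12).

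Growth factor pathways had few genes past the rule. TGF-beta and BMP genes numbered 22, and 2 were lower: the ligand gene Bmp2, at 6.32 CPM in CIA and 14.5 CPM in control (2.29-fold, 1.69 to 3.14), and Id2, a BMP-induced inhibitor of differentiation, at 21.1 CPM in CIA and 44.2 CPM in control (2.10-fold, 1.78 to 2.48), with a list median of -0.01. The Wnt list (0 of 12, median -0.16) and the list of Fgf, Igf, Pdgf and Hedgehog genes (0 of 17, median -0.14) had no gene past the rule. Igf1 was at 1442 CPM in CIA members and 1551 CPM in control members, and the Wnt antagonist Sfrp2 at 120.3 and 187 CPM. Of the matricellular list 1 of 21 passed: Cyr61, a target of the YAP coactivator, at 84.6 CPM in CIA and 177 CPM in control (2.09-fold lower, 1.93 to 2.28). Cyr61 also passed the rule in endothelial-marker cells, Lyz2-high cells, and Aqp3 and Fam180a fibroblasts.

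The glycolysis and hypoxia list had the highest median of the 24 lists. Of 20 measured glycolysis and hypoxia genes 15 had a log2 ratio above 0, where 5755 of all 8786 measured genes did. The list's median was 0.23, beside 0.08 over all measured genes. Ldha, lactate dehydrogenase A, was at 754 CPM in CIA and 619 CPM in control (ratio 1.22, 1.18 to 1.26). The list's gene past the rule was Adm, the hypoxia-inducible adrenomedullin gene, at 7.65 CPM in CIA and 25.1 CPM in control, 3.28-fold lower (2.52 to 4.32). Adm was lower past the rule in endothelial-marker and Lyz2-high cells of the CIA library too. No gene passed among 14 contractile genes (median 0.10), 17 cell cycle genes (0.09), 12 lipid handling genes (-0.13), 20 genes of oxidative defence and metal binding (0.02) or 17 transcription factors of limb position (0.01). Prrx1, which marks limb mesenchyme, was at 170.2 CPM in CIA and 149.7 CPM in control.

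Cartilage genes had some of the lowest ratios in members, and cells that should lack them differed in the same direction. Of 11 measured chondrocyte markers 5 passed the rule, all lower in CIA (Col2a1, Chad, Snorc, Cytl1 and Col11a2), with a median log2 ratio of -0.93. The markers were not all lower: 8 had a log2 ratio below 0 and 3 above it, up to 0.46. In the subcluster led by Hapln1 and Scrg1, Acan stood at 255 CPM in CIA and 186 CPM in control, and Hapln1 at 203 and 144 CPM. Chad, which codes for the cartilage protein chondroadherin, was at 2.99 CPM in CIA members and 56.1 CPM in control members, 18.8-fold lower (12.8 to 28.7). Clec3a, a cartilage lectin gene, was at 0.67 and 19.4 CPM, 29.2-fold lower (13.2 to 80.3). Col2a1, type II collagen, which the rule itself bounded, had a UMI in 6.21% of CIA members and 75.3% of control members. At 5000 UMIs a cell it had a UMI in 3.80% of CIA members and 46.5% of control members, against 2.51% of CIA and 51.8% of control endothelial-marker cells, which should lack it. The control members thus carried Col2a1 no more often than the background, and the difference is not read as one in the fibroblasts.

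Genes of red cells and of macrophages followed a similar course. Hba-a2, a haemoglobin gene, was at 6.54 CPM in CIA members and 36.8 CPM in control members, 5.62-fold lower (4.28 to 7.50), and Hbb at 6.32 and 26.2 CPM. At 5000 UMIs a cell Hba-a2 had a UMI in 2.73% of CIA members and 9.52% of control members, against 4.38% of CIA and 8.997% of control endothelial-marker cells. Of 12 measured macrophage markers all had a log2 ratio above 0 (0.31 to 0.96, median 0.82) and 0 passed the rule. Their summed level was 1986 CPM in CIA members (single members 531 to 20124) and 1140 CPM in control members (176 to 35576), with none of the 14 at 0, beside 2168 CPM in CIA and 1430 CPM in control endothelial-marker cells.

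Among the 17 genes higher in CIA members, several belong to those cells. Trem2, a lipid receptor of macrophages, was at 16.9 CPM in CIA and 7.31 CPM in control (2.31-fold higher, 1.77 to 3.02). The leukocyte integrin gene Itgb2 (2.17-fold), the complement receptor gene C5ar1 (2.21-fold) and the Fc receptor gene Fcgr1a (2.18-fold) were higher too. In endothelial-marker cells the same genes had ratios of 2.15 for Trem2, 1.93 for Itgb2, 1.71 for C5ar1 and 2.34 for Fcgr1a. Trem2 had a UMI in 8.08% of CIA members and 3.81% of control members at 5000 UMIs a cell, against 10.6% of CIA and 4.72% of control endothelial-marker cells, so its share in members lay at the background.

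Pla2g2d, a secreted phospholipase, differed in members much as in other cells, at 11.4 CPM in CIA and 4.24 CPM in control (2.69-fold higher, 1.92 to 3.81), with a ratio of 2.47 in endothelial-marker cells. Cdhr5, a cadherin-related gene, was at 20.4 CPM in CIA and 8.80 CPM in control (2.32-fold, 1.82 to 2.96), with a ratio of 1.30 in endothelial-marker cells. Adora2b, an adenosine receptor gene, was at 13.3 CPM in CIA and 6.44 CPM in control (2.06-fold, 1.55 to 2.77), with a ratio of 0.80 in endothelial-marker cells and 1.06 in Sectm1 and Cbln1 fibroblasts. Gal, the galanin neuropeptide gene, was at 13.6 CPM in CIA and 6.68 CPM in control (2.04-fold, 1.54 to 2.72), with a ratio of 1.88 in endothelial-marker cells. Each of these genes was detected in 10.1% to 12.2% of CIA members and 5.01% to 7.31% of control members.

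Single cells decided some of the extreme values. Of the UMIs of Tnmd, a tendon gene that was 16.3-fold higher in CIA members, 61.9% came from 1 CIA cell, and the gene had a UMI in only 0.92% of CIA members and 0.60% of control members. Bglap, the osteocalcin gene of osteoblasts, was at 8.20 CPM in CIA members and 216 CPM in control members, 26.3-fold lower (20.9 to 33.6), but 95.9% of its UMIs in CIA members and 82.0% of those in control members came from 1 cell in each. In endothelial-marker cells Bglap was at 0.16 CPM in CIA and 8.80 CPM in control. Of the UMIs of Chad in CIA members 74.1% came from 1 cell, and without the top cell of each library the gene was 62.2-fold lower. Ibsp, another bone gene, was at 16.3 CPM in CIA members and 44.4 CPM in control members and had a UMI in 3.45% and 15.7% of them.

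The same libraries were compared in the neighbouring fibroblasts. In Sectm1 and Cbln1 fibroblasts 8 (0.11%) of 7299 measured genes were higher and 51 (0.699%) lower in CIA, and in Aqp3 and Fam180a fibroblasts 19 (0.584%) of 3255 were higher and 72 (2.21%) lower. The Jun ratio was 0.45 in members, 0.46 in Sectm1 and Cbln1 fibroblasts and 0.36 in Aqp3 and Fam180a fibroblasts, and the Gadd45g ratios were 0.26, 0.43 and 0.13. C3 differed in direction, with a ratio of 0.42 in members, 1.31 in Sectm1 and Cbln1 fibroblasts and 1.40 in Aqp3 and Fam180a fibroblasts, the last 2 short of the rule. The Kera ratios were 2.57, 3.25 and 2.20. Only in members did Kera have enough UMIs to count as measured, so the last 2 ratios are not read further. Egfl6 was lower in CIA in each, with ratios of 0.80, 0.64 and 0.41, and Mfap2 was at 1.04, 1.08 and 0.28. The sum of these genes with Prss35 was used to pick the members and the Sectm1 and Cbln1 fibroblasts, so these ratios are a description. With 1 library per group none of these differences between kinds of fibroblast could be tested.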

How the data were processed

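Cartilage cells of 1 CIA and 1 control library were analysed from the raw UMI counts per gene and cell that the authors deposited; per the labels' protocols the libraries were made with a Chromium 3' kit. Reads had been placed on build mRatBN7.2, per the submitters' processing notes. The aligner, counter and cell calling were not given in the sources used here. Totals were 105752977 UMIs (CIA, median 10541 per cell) and 76927821 UMIs (control, median 11873), a depth that sets the counting precision. The libraries shared 52 barcodes, 7 of them of members in each library and 1 of a member in both.

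All deposited cells entered. Doublets were not removed in the main analysis: Scrublet marked 8 CIA and 7 control members, none had over 20% mitochondrial UMIs, and leaving such cells out is an alternative. Members' UMIs were summed per library and scaled to CPM over the 18147 genes listed for both libraries. Ratios carry exact conditional 95% intervals, levels exact Poisson intervals and shares Clopper-Pearson intervals, all for counting error only. The size rule replaces a test. It was run on simulated independent Poisson sums with set folds. Those sums hold no clumping of UMIs in single cells and no variation between libraries, so the run does not cover these errors. Shares of cells with a UMI were compared after thinning to 5000 UMIs. Subclusters came from Leiden clustering at resolution 0.5 on 2000 variable genes, 30 components and 15 neighbours; leading genes are the 10 of highest fold of CPM plus 20 that were found in at least 20% of the subcluster's cells. The 24 gene lists had 484 of 503 genes in the files, 7 through older symbols.

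Named genes were the markers and rule genes, those past the size rule in at least 10% of members and without their top cell (up to 15 each way), the 20 highest against other gated fibroblasts, the leading members of each list and cell type markers. Eln, Fbn1, Col12a1, Serpine2, subcluster leaders and genes lower in members were named after their values were seen, and the endothelial-marker and Lyz2-high cells were defined then too. The members and lists were chosen with earlier results of these data known. Promoter sequences were not used here, and 1 leading gene of a subcluster is not reported here. Cells were handled in scanpy 1.11.5 with igraph 0.11.9, anndata 0.12.19, scipy 1.17.1, numpy 2.4.6, pandas 2.3.3, scikit-learn 1.9.0 and matplotlib 3.10.9 under Python 3.11.15, and TMM factors were computed in R 4.3.3 (edgeR 4.0.16).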

Additional observations from a re-analysis of the deposited data

How the results depend on the processing

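The share of members moved with the rule. With a minimum of 2 UMIs of Mfap2, Egfl6 and Prss35 it was 10.9% in CIA and 19.6% in control, with 5 UMIs 8.63% and 16.4%, with cells thinned to 5000 UMIs 8.72% and 15.3%, and of gated fibroblasts 43.0% and 57.0%; it was lower in CIA each time. Without high-mitochondrial cells and doublets it was 10.2% in CIA and 18.5% in control. With no minimum of UMIs 45 genes were higher and 170 lower in CIA among 16371, and with a minimum of 300 UMIs 3 were higher and 40 lower among 5978. TMM factors gave 13 higher and 83 lower and moved the median log2 ratio to 0.01. In the other 9 settings, 13 to 18 genes were higher and 70 to 96 lower; these include 2 chosen after seeing the data, without the subcluster led by Myoc and Gsn (17 higher, 71 lower) and without barcodes listed in both libraries (16 higher, 79 lower). Of 37 named genes past the size rule, 28 stayed past it in 10 settings, 9 fell short in at least 1 (Cdhr5, Trem2, C5ar1, Fcgr1a, Adora2b, Gal, Id2, Cxcl9 and Il1b) and 0 reversed. Trem2, C5ar1 and Fcgr1a were short of it without cells over 1% macrophage markers. No paired analysis was possible because each group has 1 library. Animal, batch and condition cannot be told apart with 1 library per group, and depth limits every call to genes with enough UMIs.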
